A study of Mus musculus with 11 samples.

Results

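The 6 genes described here are the neurotrophins Bdnf and Ntf3, the neurotrophin receptors Ngfr, Ntrk2 and Ntrk3, and Gdnf, a growth factor of a separate family that also acts on neurons. They were chosen by symbol, as 6 of the 24898 genes listed in the deposited tables, and all 6 are listed at each age. Single cells came from the cochlear sensory epithelium of Wildtype CD1 mice at embryonic days 14 and 16 (E14, E16) and at postnatal days 1 and 7 (P1, P7), with no treatment or engineered allele in any group. The E14 group had 2 libraries, the E16 group 3, the P1 group 4 and the P7 group 2, which the labels number 4 and 5. Each collection pooled cochleae from several animals, so that a library is a pool and not 1 animal.

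Neurotrophins are secreted proteins that keep developing neurons alive and guide their fibres. BDNF acts mainly through the receptor kinase TrkB, the product of Ntrk2, and NT-3, the product of Ntf3, mainly through TrkC, the product of Ntrk3, while the receptor p75, the product of Ngfr, binds all neurotrophins. In the inner ear both ligands are made by the sensory epithelium, and the spiral and vestibular ganglion neurons that carry the Trk receptors depend on them. GDNF signals through a co-receptor of the Gfra family and the kinase Ret.

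In the mm10 build (GRCm38), annotated with GENCODE, Bdnf lies at chr2:109674700-109727007 on the plus strand and Ntf3 at chr6:126101412-126166910 on the minus strand. Ngfr lies at chr11:95568818-95587735 on the minus strand, Ntrk2 at chr13:58806569-59133970 on the plus strand, Ntrk3 at chr7:78175959-78738012 on the minus strand and Gdnf at chr15:7810846-7837575 on the plus strand. Each value is for a whole protein-coding gene. Ntrk2 has 10 annotated transcripts, 7 of them coding, and Ntrk3 has 20, 6 of them coding, so that full-length and truncated receptors cannot be told apart here. Both genes overlap 4 other annotated genes, and Bdnf overlaps 1 gene on the opposite strand, Gm45346.

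The tables held 30634 cells in 11 libraries, with 3828399 to 23523802 unique molecular identifiers (UMIs, 1 for each captured RNA molecule) in a library and a median of 2478 to 5647.5 UMIs in a cell. Levels are given as CPM, a gene's UMIs per 1000000 UMIs of a cell, taken as the mean across a class's cells within a library. Classes were gated by marker lists that hold none of the 6 genes: hair cells, a lateral class (lateral prosensory cells at E14 and E16, pillar and Deiters' cells at P1 and P7), medial prosensory cells, inner phalangeal cells, Kölliker's organ, and others. Kölliker's organ is the transient epithelium medial to the organ of Corti. No gate took 45.7%, 37.4%, 47.5% and 65.1% of cells at E14, E16, P1 and P7, so that a class is its most marked cells, and glia could be gated at P7 alone. The 18 hair cell markers together reached 13087 to 31442 CPM in hair cells at E14, E16 and P1. The 9 neuron markers together reached at most 157 CPM in hair and lateral classes, in E16 inner hair cells, and no class of neurons was gated. Cells of 1 library are not replicates, and every test is over libraries, which are pools collected apart.

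The ligands were the most abundantly counted of the 6 genes, with 6293 UMIs of Bdnf and 12906 of Ntf3 in all cells. Ntrk2 had 2008 UMIs, Ngfr 1356, Gdnf 383 and Ntrk3 249. These totals depend on which cells were caught and do not rank the genes, whose transcripts may be captured unequally.

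Bdnf, which encodes the ligand of TrkB, had its highest mean level in hair cells at each age. In hair cells it measured 601 and 236 CPM in the E14 libraries, 318, 255 and 371 CPM at E16, 363, 461, 507 and 861 CPM at P1, and 278 and 202 CPM at P7. In lateral cells it measured 41.5 and 28.6 CPM at E14, 30.6, 33.6 and 28.6 CPM at E16, 6.33, 7.83, 15.9 and 16.5 CPM at P1, and 0 and 1.66 CPM at P7. The hair cell and lateral libraries did not overlap at any age. Hair cells exceeded lateral cells by 2.97 ± 0.32 (SE) on the log2(CPM + 10) scale at E16, 4.65 ± 0.23 at P1 and 4.52 ± 0.29 at P7 (limma, adjusted p = 5.3e-08, 3.5e-16 and 4.2e-08). At P1 and P7 Bdnf met the mean level for the test only through hair cells, so the p-values at those ages are conditional on that. At E14 62 cells passed the hair gate, but only 31 passed no other gate and made up the class. They held 52 Bdnf UMIs, so the difference of 3.12 between the means is given without a test.

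**Figure D1:**
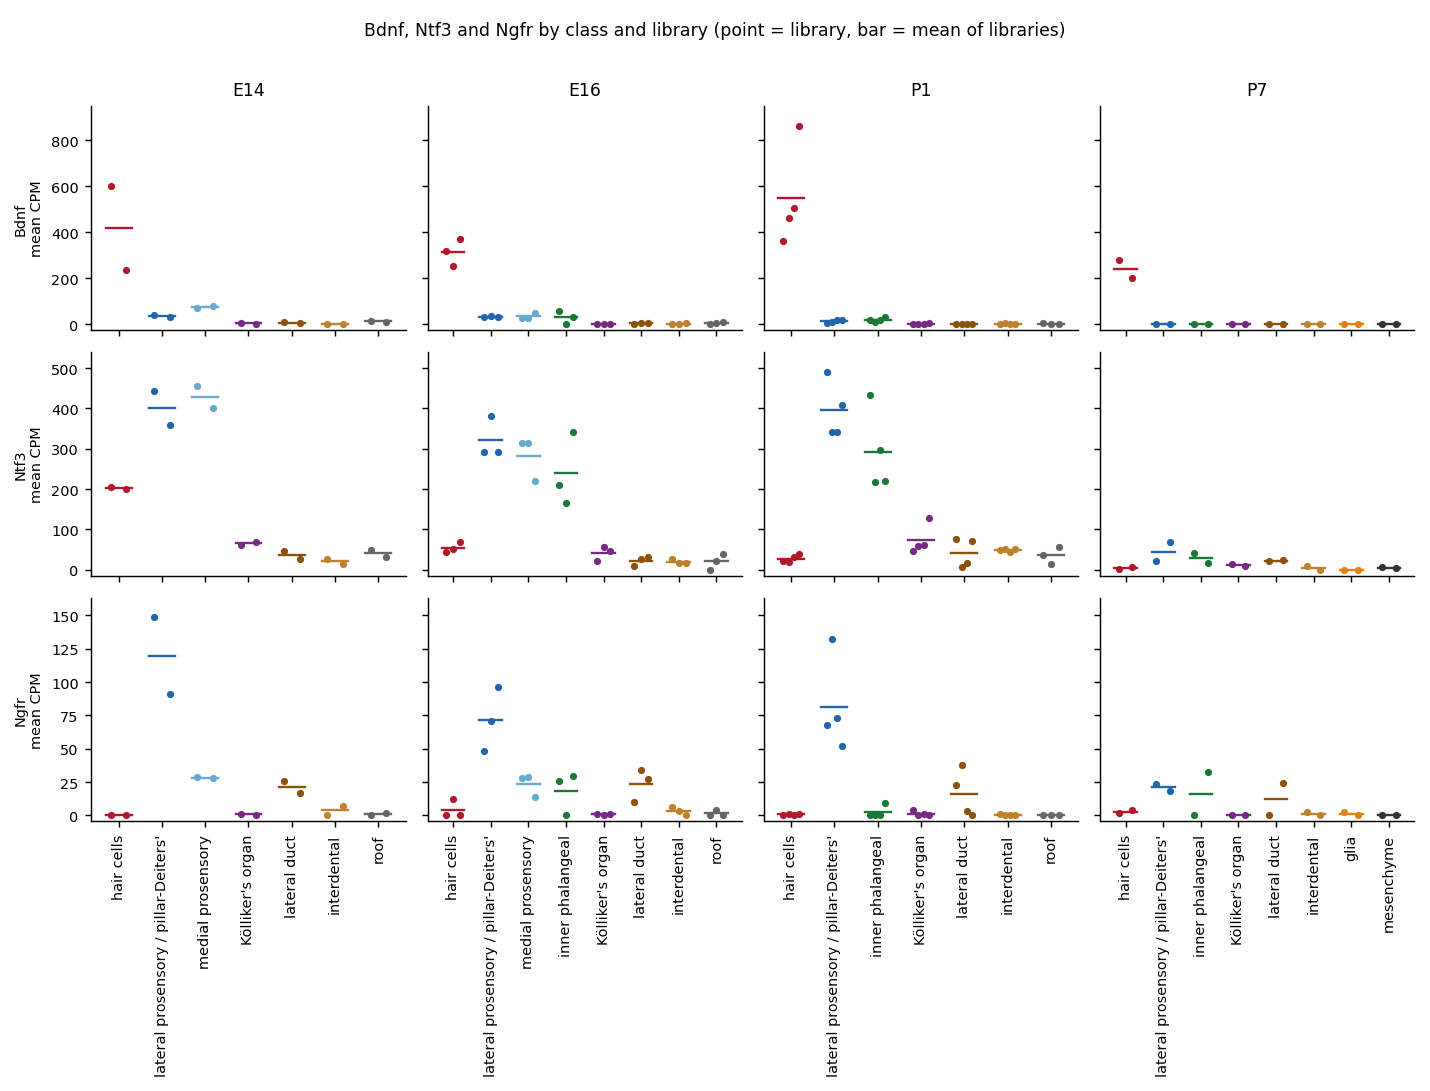
Mean CPM of Bdnf, Ntf3 and Ngfr in each library (points) and the mean of the libraries (bars) for each gated class at E14, E16, P1 and P7. Bdnf points sit highest in hair cells, from 202 to 861 CPM over the ages, while the Ntf3 and Ngfr points of hair cells at E16 and P1 sit under those of lateral cells.

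Bdnf in Kölliker's organ stayed at 4.19 CPM or less in all 11 libraries. Hair cells exceeded it by 4.83 at E16 and 5.50 at P1 (adjusted p = 5.8e-12 and 6.8e-18). The P1 p-value carries the same condition, that Bdnf entered the test through hair cells. At P7 no Bdnf UMI was seen in 269 Kölliker's organ cells, and 3 UMIs over the class as a floor give hair cells at least 121-fold higher. The 128 glial cells at P7 also had no Bdnf UMI, and on the same floor hair cells were at least 35.6-fold higher.

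Lateral cells held more Bdnf than Kölliker's organ at E14, E16 and P1. The difference was 1.76 ± 0.30 at E14, 1.86 ± 0.32 at E16 and 0.85 ± 0.23 at P1 (limma, adjusted p = 0.00021, 0.00013 and 0.0063). At P1 Bdnf was low in both classes, on 63 UMIs in lateral cells and 31 in Kölliker's organ, and met the mean level for the test only through hair cells. At P7, with 1 UMI in lateral cells and 0 in Kölliker's organ, there was nothing to compare. Without P1 replicate 3 the P1 difference was 0.73 and no longer passed (limma, adjusted p = 0.11), nor did it with a pseudocount of 50 CPM (0.25, adjusted p = 0.20). On the mean of the ln values neither E16 nor P1 passed (0.16 and 0.07, adjusted p = 0.43 and 0.72). Medial prosensory cells, from which the inner hair cell side of the organ arises, measured 69.0 and 79.0 CPM at E14 and 28.5, 26.3 and 49.3 CPM at E16. The lateral minus medial difference was -0.91 at E14 and -0.09 at E16 and passed the test at neither age (adjusted p = 0.10 and 0.93).

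Bdnf outside hair cells was set beside the hair cell markers. In lateral cells the 18 markers together were at 2.0%, 2.01%, 1.06% and 2.18% of their hair cell level at E14, E16, P1 and P7, and Bdnf at 8.37%, 9.84%, 2.12% and 0.346%. In Kölliker's organ the markers were at 0.822%, 0.986%, 1.01% and 0.804%, and Bdnf at 0.760%, 0.412%, 0.313% and 0%. Bdnf in lateral cells was above the share of the marker list at E14, E16 and P1 and below it at P7, and in Kölliker's organ it was below that share at each age. The same markers set the hair gate, and 21, 22, 45 and 9 cells past both the hair and lateral gates were left out, which lowers the list's share in lateral cells by construction. The part of hair cell RNA in these values was not tested.

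With every cell thinned at random to 1500 UMIs, 38.7%, 30.4%, 55.4% and 25.3% of hair cells had a Bdnf UMI at E14, E16, P1 and P7. Without this step the shares were 74.2%, 51.0%, 91.3% and 67.2%. In Kölliker's organ the thinned shares were 0.241%, 0.140%, 0.189% and 0%. The median depth of hair cells was 4479, 3406, 6521 and 7040 UMIs, against 3220, 2623, 4924 and 5352 in Kölliker's organ. Hair cells were 7.05% of cells at P1 and 7.49% at P7 and held 85.1% and 92.1% of all Bdnf UMIs. At E16 they were 6.46% of cells and held 69.4%. At E14 they were 0.590% of cells and held 52 of 467 UMIs, or 11.1%, fewer than the 72 of medial prosensory cells and the 177 of cells that passed no gate. Cells past several gates also held 72, and they include the cells past the hair gate that were left out of the hair class.

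Both inner and outer hair cells carried Bdnf. At P1 inner hair cells measured 404, 437, 551 and 757 CPM and outer hair cells 347, 444, 498 and 880 CPM. The difference was 0.03 ± 0.23 at P1 and 0.51 ± 0.37 at P7 (limma, adjusted p = 0.98 and 0.69). These p-values do not show that the types are equal, and at P7, with 290 and 273 CPM in inner and 224 and 170 CPM in outer hair cells, the libraries of the 2 types did not overlap.

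Ntf3, which encodes NT-3, had mean levels in the lateral class above those in hair cells and Kölliker's organ at each age, and was lowest there at P7. In lateral cells it measured 443 and 360 CPM at E14, 291, 382 and 291 CPM at E16, 491, 342, 341 and 409 CPM at P1, and 21.5 and 68.5 CPM at P7. In Kölliker's organ it measured 61.4 and 68.6 CPM at E14, 22.0, 56.5 and 45.3 CPM at E16, 46.3, 57.9, 62.1 and 127 CPM at P1, and 14.0 and 8.97 CPM at P7. Lateral libraries were above all Kölliker's organ libraries at each age. The difference was 2.45 ± 0.22 at E14, 2.75 ± 0.38 at E16 and 2.36 ± 0.31 at P1 (limma, adjusted p = 1.7e-08, 8.5e-06 and 8.1e-07), and 1.22 ± 0.46 at P7, which did not pass (adjusted p = 0.14).

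Medial prosensory and inner phalangeal cells, the supporting cells around inner hair cells, carried Ntf3 as well. Medial prosensory cells measured 455 and 402 CPM at E14 and 314, 313 and 219 CPM at E16. Lateral minus medial was -0.10 at E14 and 0.19 at E16 (adjusted p = 0.88 at both ages). Inner phalangeal cells at P1 measured 433, 217, 297 and 219 CPM and exceeded Kölliker's organ by 1.89 ± 0.31 (limma, adjusted p = 4.4e-05). The 81 cells of the inner phalangeal class at E16, at 211, 166 and 341 CPM, and the 31 at P7, at 42.2 and 17.5 CPM, were too few for a test.

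Hair cells held little Ntf3 from E16 on. They measured 205 and 201 CPM at E14, 44.5, 50.6 and 69.5 CPM at E16, 20.5, 18.1, 32.7 and 38.0 CPM at P1, and 1.84 and 7.67 CPM at P7. Hair cell libraries were below all lateral libraries at each age, and hair minus lateral on the log2 scale was -2.36 ± 0.38, -3.46 ± 0.31 and -1.78 ± 0.46 at E16, P1 and P7 (limma, adjusted p = 3.6e-05, 1.8e-10 and 0.011). At P7 the mean level of Ntf3 for the test rested largely on the lateral class, so the P7 p-value is conditional on that. With a pseudocount of 1 CPM the P7 difference was -2.99 and did not pass (adjusted p = 0.099). Against Kölliker's organ they differed at P1, by -1.11 ± 0.31 (adjusted p = 0.0039; on the mean of the ln values -0.26, adjusted p = 0.054), and did not pass at E16 (0.39, adjusted p = 0.62) or P7 (-0.56, adjusted p = 0.42). At E14 the hair cells stood at 50.6% of the lateral Ntf3 level, and the 13 lateral cell markers together at 54.6% of theirs. At the later ages Ntf3 stood at 17.1%, 6.91% and 10.6%, and the markers at 15.9%, 6.82% and 9.33%, in E16, P1 and P7 order. The part of lateral cell RNA in the hair cell values of Ntf3 was not tested.

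Inner and outer hair cells differed in Ntf3. At P1 inner hair cells measured 27.0, 58.4, 86.0 and 81.7 CPM and outer hair cells 13.1, 2.50, 13.2 and 27.5 CPM. Inner exceeded outer in 4 of 4 libraries, by 1.62 ± 0.34 (limma, adjusted p = 0.0012). In the same cells the lateral cell markers were lower in inner than in outer hair cells, at 4.70% and 7.10% of their lateral level, while Ntf3 was at 16.0% and 3.56%. These markers also set the lateral gate, past which hair cells were left out, and the part of lateral cell RNA in the difference was not tested. At P7 inner hair cells measured 5.16 and 20.1 CPM and outer hair cells 0 and 2.80 CPM, a difference of 0.92 that did not pass (adjusted p = 0.45). At E16 inner hair cells measured 31.9, 58.2 and 129 CPM and outer hair cells 37.5, 41.4 and 35.8 CPM, and the groups overlapped.

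**Figure D2:**
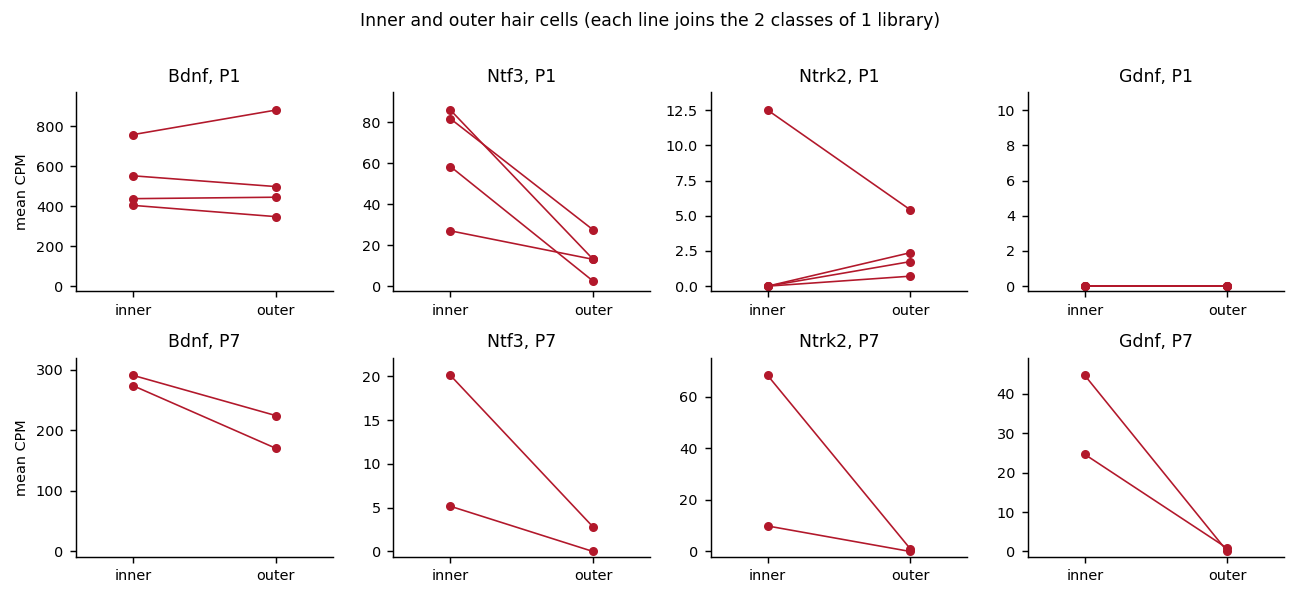
Mean CPM of Bdnf, Ntf3, Ntrk2 and Gdnf in inner and outer hair cells at P1 (top, 4 libraries) and P7 (bottom, 2 libraries), with a line joining the 2 types in a library and an axis of its own in each panel. The Ntf3 lines at P1 all go down from inner to outer, the Bdnf lines at P1 go both ways, and Gdnf at P7 is at 44.7 and 24.6 CPM in inner hair cells.

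Ntf3 in Kölliker's organ was above the share of the lateral markers there at E14, E16 and P1 and close to it at P7. It stood at 16.2%, 12.8%, 18.5% and 25.6% of the lateral level at E14, E16, P1 and P7, and the marker list at 5.13%, 3.36%, 1.97% and 23.8%. The list's share is a sum of CPM, and 1 list gene, Socs2, had a UMI in 2724 of the 3377 cells at P7. The mean score of the list in P7 Kölliker's organ was -0.11, against -0.04 over all P7 cells. The part of lateral cell RNA in the Ntf3 values of Kölliker's organ was not tested. Glia at P7 had no Ntf3 UMI in either library, and the glia minus lateral difference was -2.31 ± 0.46 (limma, adjusted p = 0.0020). This p-value too is conditional on the lateral class, on which the P7 mean level of Ntf3 largely rested.

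Ntf3 was lower at P7 than at P1 in every class that was tested. Gates were set within an age, so the mix of cells in a class could differ between ages. The lateral class had a mean pillar marker score of 1.28 at P1 and 1.75 at P7, and 1.55 and 1.22 for its own markers. The part of this mix in the changes was not tested. In lateral cells no change was called by limma between E14 and E16 (-0.32, adjusted p = 0.64) or E16 and P1 (0.29, adjusted p = 0.61). On simulated data these comparisons recovered 18.4% and 34.9% of 2-fold changes, so a steady level is not shown. Lateral cells dropped by 3.01 ± 0.31 on the log2 scale from P1 to P7, with P7 minus P1 at -3.01 (adjusted p = 9.9e-07). Kölliker's organ changed by -1.88 ± 0.34 (adjusted p = 0.00094), hair cells by -1.33 ± 0.32 (adjusted p = 0.0051) and all cells together by -1.97 ± 0.22 (adjusted p = 4e-05) over the same interval. Hair cells also changed from E16 to P1, by -0.81 ± 0.28 (adjusted p = 0.049), a call that was lost without each of 6 of the 7 libraries (adjusted p from 0.064 to 0.16), in a comparison where 10.8% of calls on simulated data were false. Without P7 replicate 4 the hair cell change from P1 to P7 was -1.04 and did not pass (limma, adjusted p = 0.12). The thinned share of lateral cells with an Ntf3 UMI was 45.3%, 31.6%, 41.9% and 6.31% at E14, E16, P1 and P7, and 78.4%, 47.0%, 78.4% and 12.6% without thinning, beside thinned shares of 9.33%, 5.68%, 9.15% and 1.49% in Kölliker's organ.

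Bdnf in hair cells was higher at P1 than at E16 by 0.72 ± 0.26, which did not pass (limma, adjusted p = 0.064) but did without P1 replicate 1 (0.89, adjusted p = 0.018), and lower at P7 than at P1, with a change of -1.10 ± 0.30 (adjusted p = 0.013). The P1 libraries ranged from 363 to 861 CPM and the P7 libraries were both lower. Without P7 replicate 5 the change was -0.88 and no longer passed (adjusted p = 0.21). In lateral cells P1 minus E16 was -0.95 (adjusted p = 0.089) and P7 minus P1 was -0.97 (adjusted p = 0.082). Age, collection, dissection and the mix of cells in a class cannot be told apart in these comparisons or in those of the other genes by age. The E14 hair cells were too few to enter them.

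**Figure D3:**
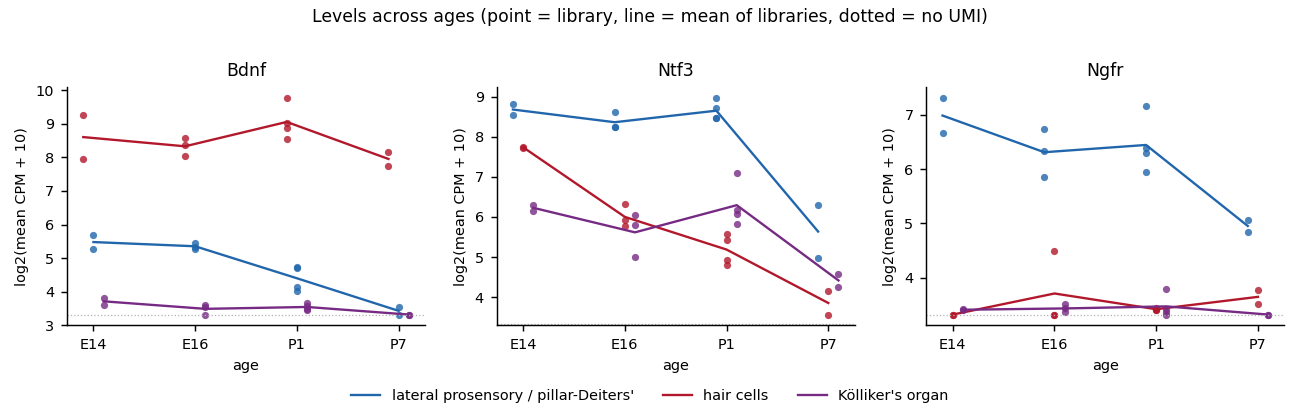
Levels of Bdnf, Ntf3 and Ngfr by age on a log2(mean CPM + 10) scale in hair cells, lateral cells and Kölliker's organ, 1 point for each library with a line through the means of the libraries and a dotted line where no UMI lies. Ntf3 in lateral cells falls from 341 to 491 CPM at P1 to 21.5 and 68.5 CPM at P7.

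Ngfr, which encodes the p75 receptor, had its highest means in the lateral class. In lateral cells it measured 149 and 90.9 CPM at E14, 48.0, 70.7 and 96.3 CPM at E16, 68.1, 132, 73.3 and 51.8 CPM at P1, and 23.6 and 18.5 CPM at P7. In Kölliker's organ it stayed at 3.77 CPM or less in all 11 libraries, with no UMI at P7. Lateral cells exceeded Kölliker's organ by 3.57 ± 0.34 at E14, 2.87 ± 0.36 at E16 and 2.97 ± 0.31 at P1 (limma, adjusted p = 4.9e-08, 1.9e-06 and 9.7e-09). At E16 and P1 the gene met the mean level needed for the test through the lateral class itself. At P7 the gene was under that level, and lateral cells were at least 11.3-fold above the floor of 3 UMIs in Kölliker's organ. The P7 lateral duct held 4 Ngfr UMIs in 228182 and inner phalangeal cells 2 in 178256, beside 20 in 934912 in lateral cells. On so few UMIs these classes are not told apart from lateral cells.

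Hair cells were nearly free of Ngfr. They had no UMI in 31 cells at E14, where lateral cells were at least 6.34-fold higher, and measured 0, 12.4 and 0 CPM at E16, at most 0.862 CPM at P1, and 1.46 and 3.72 CPM at P7. Hair minus lateral was -2.60 ± 0.36 at E16 and -3.02 ± 0.31 at P1 (limma, adjusted p = 4.1e-06 and 2.1e-09). Ngfr entered these tests only because the lateral class was high, so the p-values are conditional on that. With a stricter gate the E16 difference was -1.52 and did not pass (adjusted p = 0.072).

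Ngfr was also called between lateral and medial prosensory cells at E14, the only one of the 4 members tested there (3.36% of all genes called). By limma 3 of the 4 had an unadjusted p under 0.05. Medial cells measured 29.0 and 27.7 CPM at E14 and 28.3, 28.6 and 13.5 CPM at E16. Cells past both the medial and lateral gates counted as lateral, which leaves medial cells low in lateral markers by construction. Lateral exceeded medial by 1.72 ± 0.34 at E14 (limma, adjusted p = 0.0036) and by 1.28 ± 0.36 at E16, where it did not pass (adjusted p = 0.072) but did without E16 replicate 1 (1.62, adjusted p = 0.018). With classes from Leiden clusters the E14 difference was 0.57 and did not pass (adjusted p = 0.20). Cells of the lateral duct, on the far side of the lateral class, measured 25.8 and 16.8 CPM at E14 and 9.71, 34.3 and 27.3 CPM at E16. In P1 inner phalangeal cells Ngfr was at 9.05 CPM or less, on 8 UMIs, beside 22 UMIs in Kölliker's organ, too few to compare.

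Ngfr in lateral cells was lower at P7 than at P1, by a change of -1.49 ± 0.36 (limma, adjusted p = 0.0087), and the libraries did not overlap. The call was lost with a stricter gate and with replicate number as a block. Without P7 replicate 4 or P7 replicate 5 the changes were -1.61 and -1.37 and neither passed (adjusted p = 0.067 and 0.12). The thinned share of lateral cells with a UMI was 18.0%, 9.16%, 9.30% and 0.901% at E14, E16, P1 and P7.

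**Figure D4:**
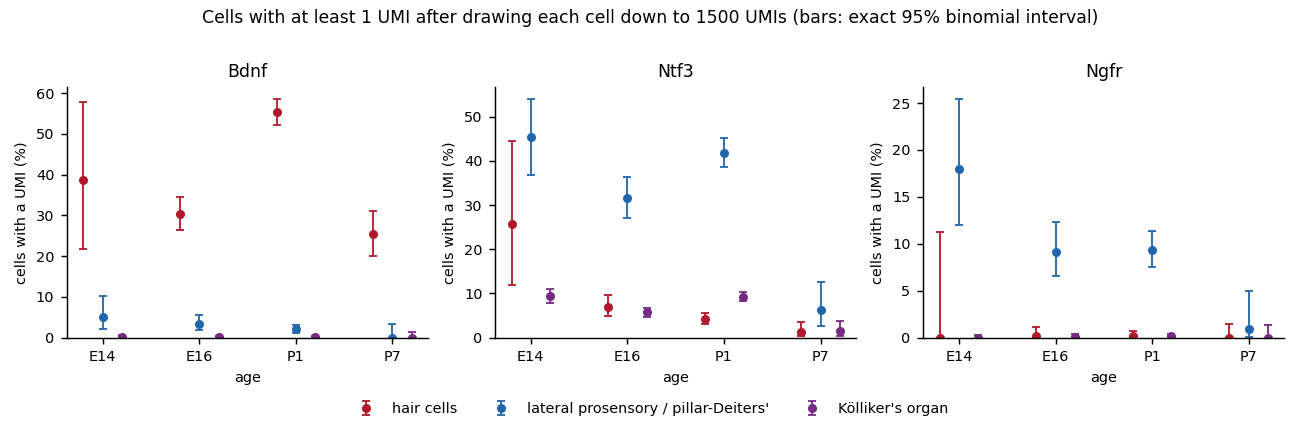
Percent of cells with a UMI of Bdnf, Ntf3 or Ngfr by age in the classes named in the panels, all cells thinned to 1500 UMIs, and exact binomial 95% intervals. Bdnf is found in 25.3% to 55.4% of hair cells, and Ntf3 in lateral cells falls to 6.31% at P7.

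Counted together, 3 of the 4 members tested were higher in lateral cells than in Kölliker's organ at E14 and 1, Ntrk2, lower, where 13.5% of all genes were called in either direction. At E16 and P1 Bdnf, Ntf3 and Ngfr, the 3 tested, were all called higher (9.05% and 22.8% of all genes called). At P7, where the 3 tested were Bdnf, Ntf3 and Ntrk2 and Ngfr was under the level needed, none was called by limma (9.27% of all genes; Bdnf had 1 UMI in both classes together and could not be), with 1 of them, Ntf3, at an unadjusted p under 0.05. Between hair and lateral cells the 3 tested were called at E16 and P1, 1 higher and 2 lower (16.6% and 48.1% of all genes called), and at P7 Bdnf and Ntf3, but not Ntrk2, were called (23.1%). Between hair cells and Kölliker's organ 1 of 3 was called at E16, 2 of 3 at P1 and at P7 Bdnf alone of Bdnf, Ntf3 and Ntrk2 (18.1%, 51.3% and 26.7%). Ngfr, with means under 5 CPM in both classes at E16 and P1, entered through lateral cells, and nothing is read from its missing call there or between inner and outer hair cells or inner phalangeal cells and Kölliker's organ at P1. Ngfr was tested at these ages only because lateral cells were high, so its lateral calls are conditional on that. Bdnf within P1 and P7 was likewise tested only through hair cells, and Ntf3 at P7 largely through lateral cells. The counts of members called carry these limits.

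In P1 inner phalangeal cells Bdnf and Ntf3 but not Ngfr were called against Kölliker's organ (14.6% of all genes called), and Bdnf did not pass on the mean of the ln values (0.11, adjusted p = 0.65). Bdnf, on 56 UMIs in these phalangeal cells, met the mean level for the test only through hair cells. Between inner and outer hair cells 1 of 3 was called at P1 and 0 of 3 at P7 (7.18% and 3.33%; by limma 1 of the 3 at P7, Ntrk2, had an unadjusted p under 0.05). Between lateral and medial cells at E16 0 of 3 were called (1.85%; by limma 1 of the 3, Ngfr, had an unadjusted p under 0.05). In P7 glia Ntf3, but not Ntrk2, was called against lateral cells and neither was against Kölliker's organ (20.7% and 18.6%; by limma Ntf3 against Kölliker's organ had an unadjusted p under 0.05).

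By age, 1 of the 2 members tested in hair cells was called between E16 and P1 and both between P1 and P7 (18.7% and 20.8% of all genes called). In lateral cells 0 of 3 were called between E14 and E16 or between E16 and P1 (2.72% and 3.71%; by limma 0 and 1 of the 3, Bdnf, had an unadjusted p under 0.05), and 2 of 3 between P1 and P7 (10.1%). In Kölliker's organ 1 of 2 was called in each interval (4.8%, 9.36% and 22.8%), and in all cells together 0, 0 and 2 of 3 (8.19%, 12.8% and 20.7%; by limma 1 and 0 of the 3 had an unadjusted p under 0.05 in the first 2 intervals). Ntrk2 in Kölliker's organ was tested by age only through its E14 libraries.

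The class differences themselves were compared between neighbouring ages for Bdnf, Ntf3 and Ngfr, and most calls depended on the pseudocount. With 10 CPM, 4 of 21 terms passed, against 1 of 21 with 1 CPM and 9 of 21 with 50 CPM (limma). Bdnf in hair against lateral cells from E16 to P1 passed with each of them. The P1 to P7 terms of hair against lateral cells for Ntf3 and Ngfr passed with 10 and 50 CPM (1.77 and 0.90 with 50 CPM) but not with 1 CPM (0.86 and 2.82, adjusted p = 0.67 and 0.29), as did Ntf3 in hair cells against Kölliker's organ from E16 to P1 (-0.85 with 50 CPM, -1.82 with 1 CPM, adjusted p = 0.17). From P1 to P7 the terms of lateral cells against Kölliker's organ for Ntf3 and Ngfr passed with 50 CPM alone (-1.30 and -0.82, adjusted p = 0.0011 and 0.0074), as did those of Bdnf in hair cells against lateral cells (-0.72) and Kölliker's organ (-0.94), both of them above 0 with 1 CPM (1.72 and 0.27), and Bdnf in hair cells against Kölliker's organ from E16 to P1 (0.65). No change is read from a term that did not pass with all 3.

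Of all genes, hair against lateral changed for 9.45% from E16 to P1 and 12.1% from P1 to P7 with 10 CPM, 6.12% and 8.69% with 1 CPM, and 12.1% and 15.6% with 50 CPM. Hair against Kölliker's organ did so for 8.53% and 18.8%, 5.84% and 14.1%, and 11.1% and 21.4% in the same order. Lateral against Kölliker's organ, over 3 intervals, did so for 0.655%, 0.775% and 12.3% with 10 CPM, 0.284%, 0.328% and 9.7% with 1 CPM, and 1.14%, 1.43% and 13.6% with 50 CPM.

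Ntrk2, which encodes TrkB, had its highest means among the gated classes at E14 in interdental cells and Kölliker's organ. At E14 it measured 22.3 and 19.2 CPM in Kölliker's organ and 46.4 and 41.4 CPM in interdental cells, which sit at its medial edge, and 8.63 and 9.03 CPM in medial prosensory cells. E14 interdental cells also had the highest mean neuron and glial marker scores of the gated classes (0.020 and 0.040, against -0.040 and -0.059 in Kölliker's organ). The part of these markers in the Ntrk2 values was not tested. No Ntrk2 UMI was seen in the lateral cells of E14 or E16. The lateral duct held the most Ntrk2 UMIs of a gated class at E16, with 22 in 1900044 UMIs. Interdental cells held 15 in 2191844 and Kölliker's organ 15 in 6803135. Hair cells at E16 measured 8.71, 2.0 and 0 CPM on 5 UMIs, all of them in inner hair cells (37.7, 9.27 and 0 CPM), a range that overlapped that of Kölliker's organ. The lateral minus Kölliker's organ difference at E14 was -1.62 ± 0.31 (limma, adjusted p = 0.00066), and Kölliker's organ was at least 5.27-fold above the floor of 3 UMIs in the 139 lateral cells.

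Ntrk2 in Kölliker's organ fell to 1.95, 2.82 and 1.88 CPM at E16 and was 17.3, 6.71, 5.98 and 17.6 CPM at P1 and 19.2 and 12.2 CPM at P7. The change was -1.33 ± 0.27 from E14 to E16 and 0.79 ± 0.22 from E16 to P1 (limma, adjusted p = 0.010 and 0.037), and 0.27 from P1 to P7 (adjusted p = 0.49). Ntrk2 met the mean level for these tests only with the high E14 libraries, so the p-values are conditional on that. Without E14 replicate 1 or E14 replicate 2 the first change was -1.26 and -1.4 and neither passed (adjusted p = 0.18 and 0.096). The P1 rise was also lost without each of 5 of the 7 libraries (adjusted p from 0.060 to 0.13). The 9 neuron markers together in these cells ranged from 48.3 to 64.6 CPM at E14, 46.0 to 58.6 CPM at E16, 128.6 to 481.6 CPM at P1 and 34.8 to 58.4 CPM at P7, and their part in the Ntrk2 values was not tested. Cells that passed no gate held 49.3%, 59.6%, 63.3% and 47.8% of the Ntrk2 UMIs at E14, E16, P1 and P7. At P1 they had 688 in 30903178 UMIs, above Kölliker's organ with 199 in 15781797. The P1 lateral duct (23 in 2229167) and phalangeal cells (31 in 2683551) lay near Kölliker's organ.

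At P7 Ntrk2 had its highest mean in mesenchyme, at 83.8 and 95.3 CPM (75 UMIs), and the 31 inner phalangeal cells measured 81.0 and 16.1 CPM on 8 UMIs. The glial class measured 70.7 and 20.2 CPM, on 12 UMIs. Its differences from lateral cells (1.29, adjusted p = 0.15) and Kölliker's organ (0.96, adjusted p = 0.31) did not pass by limma. On simulated data these comparisons recovered 4.35% and 8.91% of 2-fold changes, so the missing calls do not show equal levels. The mesenchyme markers in these glial cells summed to 1010 to 1139 CPM and the glial markers in the mesenchyme to 781 to 1056 CPM. The 9 neuron markers summed to 119 to 216 CPM in the glial cells, and to 327 to 510 CPM in those outside the myelinating subset, and the part of these lists in the Ntrk2 values was not tested. Inner hair cells at P7 measured 9.90 and 68.4 CPM and outer hair cells 0 and 1.07 CPM, a difference of 1.91 that did not pass (limma, adjusted p = 0.13).

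**Figure D5:**
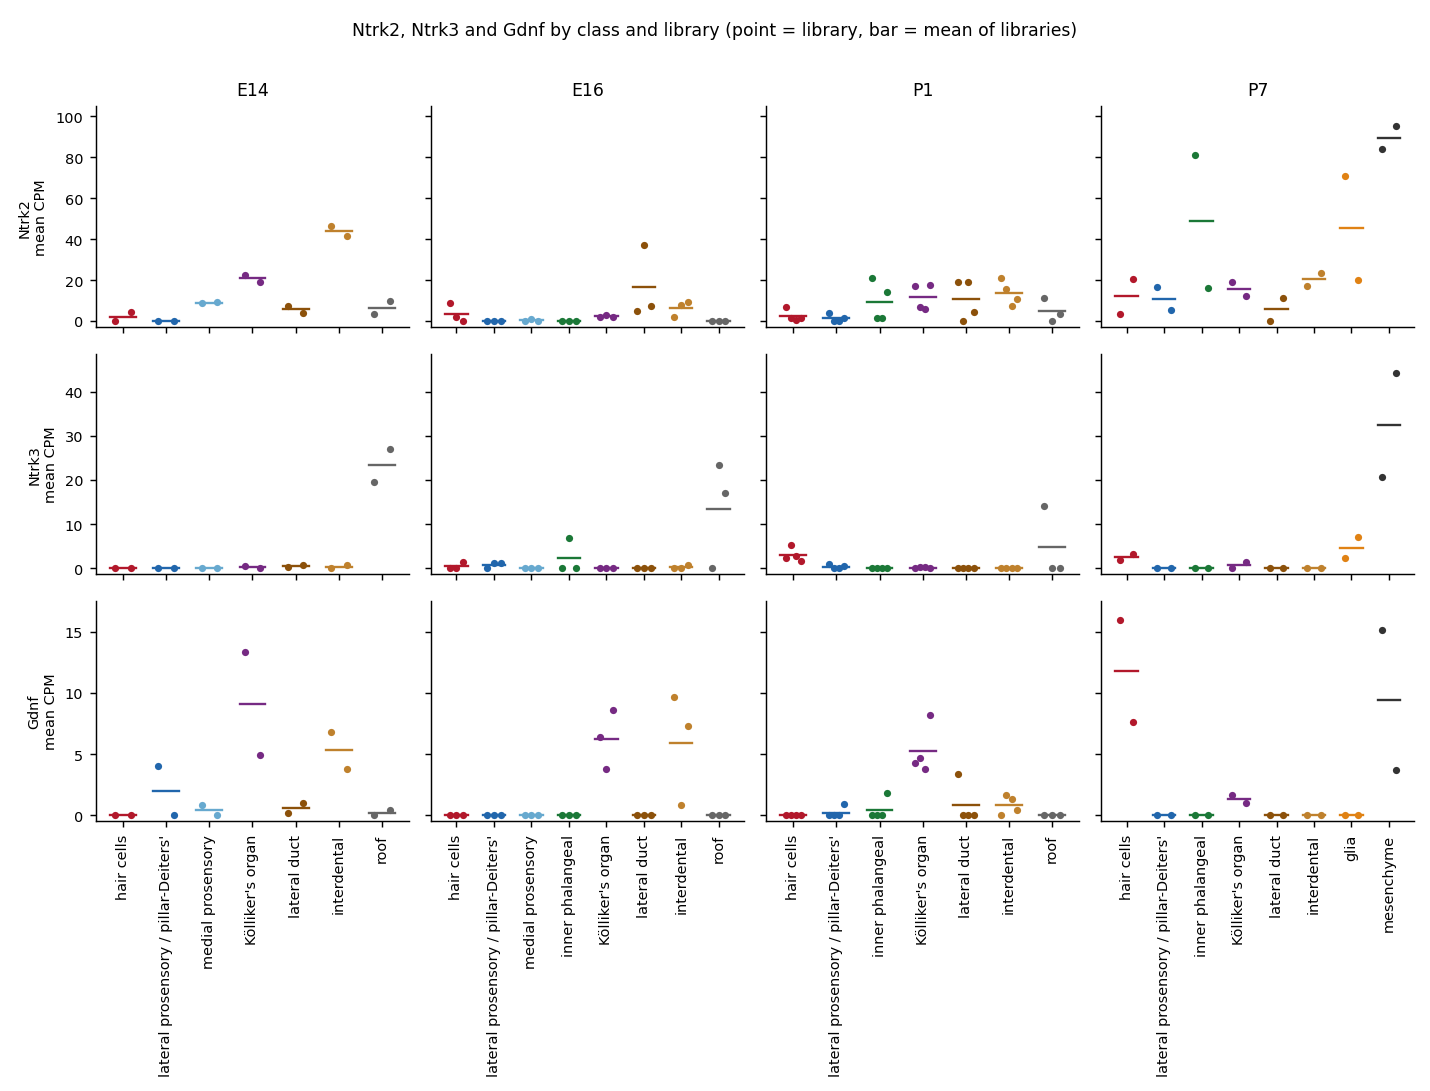
Mean CPM of Ntrk2, Ntrk3 and Gdnf in each library (points) and the mean of the libraries (bars) for each gated class at the 4 ages. Ntrk2 is found in Kölliker's organ, interdental cells, the lateral duct at E16 and P1, and P7 mesenchyme, among other classes. Ntrk3 is found in roof cells, P1 hair cells at up to 5.29 CPM and P7 mesenchyme. Gdnf is at low levels in Kölliker's organ and, at P7, in hair cells and mesenchyme.

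Ntrk3, which encodes TrkC, was the least counted of the 6 genes and was under the level needed for a test in each comparison. Among the gated classes it was found at E14 and E16 mainly in the roof of the cochlear duct, at 19.6 and 27.1 CPM at E14 and at 0, 23.4 and 16.9 CPM at E16. Roof cells were 4.36% of cells at E14 and held 35.6% of the 101 Ntrk3 UMIs, at E16 1.73% of cells and 17.2% of 64 UMIs, and at P1 0.961% of cells and 8 of 40 UMIs. Cells that passed no gate held 49.5%, 68.8% and 20.0% at these ages. The 6 mesenchyme markers together ranged in roof cells from 170 to 189 CPM at E14, 314 to 536 CPM at E16 and 388 to 581 CPM at P1, and their part in the Ntrk3 values was not tested. Of the gated classes hair cells held the most UMIs at P1, with 19 of the 40, but on pooled UMIs the roof level was higher. Hair cells had 19 in 6783946 UMIs and roof cells 8 in 673863. At 1.54 to 5.29 CPM hair cells were above lateral cells and Kölliker's organ in 4 of 4 libraries, with no test. At P7 mesenchyme measured 20.7 and 44.2 CPM and held 30 of 44 UMIs. At P1 inner hair cells measured 11.1, 13.1, 9.24 and 5.55 CPM, above 0, 3.59, 0.763 and 1.05 CPM in outer hair cells in all 4 libraries, on 12 UMIs in the inner cells and with no test.

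Gdnf was low, and before P7 most of its UMIs in gated classes were in Kölliker's organ. Kölliker's organ measured 13.3 and 4.95 CPM at E14, 6.40, 3.75 and 8.59 CPM at E16, 4.31, 4.66, 3.80 and 8.18 CPM at P1, and 1.66 and 1.02 CPM at P7. Interdental cells measured 6.83 and 3.81 CPM at E14 and 9.67, 0.856 and 7.32 CPM at E16, overlapping with Kölliker's organ. Hair cells had no Gdnf UMI at E14, E16 or P1, and at P1 Kölliker's organ was at least 10.6-fold above their floor of 0.442 CPM. Kölliker's organ was 22.6% of cells at P1 and held 45.7% of the 162 Gdnf UMIs. Cells that passed no gate held 30.1%, 37.5% and 48.1% at E14, E16 and P1.

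At P7 the gene appeared in hair cells, at 15.9 and 7.67 CPM. Of 23 UMIs, 22 were in inner hair cells, which measured 44.7 and 24.6 CPM, against 0 and 0.793 CPM in outer hair cells. A Gdnf UMI was found in 18.5% of the 81 inner hair cells, and in 4.94% after thinning. The gene was under the mean level needed for a test, so this difference has none.

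Genes of the same pathways were listed from general knowledge as 40 symbols of ligands, receptors, adaptors and convertases, of which 39 were in a table. Between 19 and 24 of them were expressed enough to test. At P1, 6 were called higher and 8 lower in hair than in lateral cells out of 20 (48.1% of all genes called), with a median difference of 0.04 against -0.02 over all genes. In E14 lateral cells 3 were higher and 2 lower than in Kölliker's organ out of 23 (13.5% of all genes called), and at P7 2 were higher and 3 lower out of 24 (9.27%). By limma no list gene was called between lateral and medial prosensory cells at E14 (23 tested, 1 at an unadjusted p under 0.05, 3.36% of all genes called) or E16 (20 tested, 5 at an unadjusted p under 0.05, 1.85% of all genes called).

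Maged1, an adaptor that binds p75, was lower in hair cells than in lateral cells at each age tested, with differences of -1.50, -2.47 and -1.82 at E16, P1 and P7. It was also lower in lateral cells than in Kölliker's organ, by -0.34, -0.69, -0.96 and -1.72 from E14 to P7. Shc4, an adaptor of the Shc family that binds activated receptor kinases, was higher in lateral cells than in Kölliker's organ at all 4 ages, by 1.53, 1.81, 2.06 and 1.98, and lower in hair than in lateral cells (-1.64, -2.0 and -2.50). Each of these values passed the test.

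Pcsk5, a proprotein convertase, was higher in hair than in lateral cells at P1 and P7, by 2.75 and 3.35, and higher than in Kölliker's organ by 1.85 and 1.4. Kidins220, a membrane partner of Trk receptors, was higher in hair cells than in Kölliker's organ at P1 and P7 by 1.01 and 2.16, and Shc2 at E16 and P1 by 1.56 and 1.15. Lower in hair cells than in Kölliker's organ were Ripk2, by -0.64 and -2.34 at P1 and P7, and Nrtn, which encodes a ligand of the GDNF family, by -1.17 and -2.15 at E16 and P1. Nrtn was also lower in lateral cells than in Kölliker's organ, by -0.89 at E14 and -1.14 at P1.

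Ndn, a relative of Maged1, was lower in hair than in lateral cells by -0.61 and -1.58 at P1 and P7. Bex3, a p75-associated protein, had differences of opposite sign at P7 and at the earlier ages, and the change between ages was not tested. It was higher in lateral cells than in Kölliker's organ by 0.40, 0.53 and 0.40 at E14, E16 and P1 and lower at P7, by -0.94. Of genes called at 1 age, Gfra2, a co-receptor of the GDNF family, was higher in lateral cells than in Kölliker's organ at E14 by 1.96 (30.8 against 0.148 CPM), Nradd, a relative of p75, was higher in glia than in lateral cells at P7 by 2.53, and Sorcs1, a sorting receptor, was higher in glia than in Kölliker's organ at P7 by 2.02.

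Over 74 profiles of a class in a library, genes outside the marker lists were ranked by Pearson correlation of log2(CPM + 10) with each member, out of 16353 genes. Profiles of 1 library share its depth and animals, and the values are a description. Most like Bdnf were Runx1t1 (0.95), Mfng (0.93), Dll1 (0.92), Rimbp2 (0.90) and Tmem255b (0.90). Most like Ntf3 were Cyp26b1 (0.84), Fgf3 (0.77), Prr15 (0.76), Moxd1 (0.76) and Stox1 (0.76), and most like Ngfr were Etv4 (0.80), Prox1os (0.79), Trabd2b (0.78), Fat3 (0.76) and Nav2 (0.76). Most like Ntrk3 were Irx1 (0.79), Prr16 (0.78), S1pr3 (0.77), Rtn4rl1 (0.76) and Enpep (0.74). The leading genes for Ntrk2, Them4 (0.65), and for Gdnf, Syne1 (0.60), were less like them.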

How the data were processed

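The 4 deposited tables, 1 for each age, hold natural log (ln) values per gene and cell, which the authors made with Cell Ranger 2.1.1 and Seurat 2.0 on mm10 (submitters' processing notes): ln of 1 plus a gene's fraction of a cell's UMIs times 10000. All values gave whole UMIs within 2%. Cells were gated by mean marker z-score (hair, lateral, duct, interdental, glia and mesenchyme 0.8, Kölliker's organ 0.4, medial, phalangeal and roof 1). Cells past the lateral gate were not counted as medial or phalangeal, so cells past both stayed lateral. At E16 535 cells were past the medial gate and 240 made up the medial class. Other cells past several gates were left out, with no doublet caller. Hair cells were split by inner minus outer score (at least 0.5, at most -0.25). A class needed 10 cells in a library. Members, lists and tests were chosen with earlier results of these data known, and gates were set after the scores had been seen. Named pathway genes were those called in 1 direction in 1 kind of comparison at 2 or more ages, plus the 3 largest of the others. A gene that this rule also names is not reported here.

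Profiles were log2(mean CPM + 10). Genes with a mean of 10 CPM or more were fitted with limma 3.58.1 (R 4.3.3), with library as a block within an age, and Benjamini-Hochberg adjustment over all genes tested at 0.05. On data simulated with 200 changed genes, comparisons with a class averaging under 100000 UMIs a library gave many false calls (73.4% of calls for E14 hair against lateral), so those classes, and the E16 split of hair cells, were left out of the planned fits and given as values. Comparisons that were kept also gave false calls there, most in Kölliker's organ P7 against P1 (17.2% of calls), E16 lateral against medial (15.6%), hair P1 against E16 (10.8%), lateral E16 against E14 (8.94%) and E14 lateral against medial (8.45%), beside 18.2% in the E16 split of hair cells. Comparisons of classes within P7 recovered 4.35% to 15.6% of simulated 2-fold changes and 58.2% to 74.0% of 4-fold changes. A missing call at P7 therefore does not show equal levels. Barcodes shared between libraries were 11, 29, 84 and 9 at E14, E16, P1 and P7. Floors are 3 UMIs, and exact 95% intervals cover counting error only. Replicate numbers did not pair libraries across ages (correlations of deviations from -0.28 to 0.11).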

Additional observations from a re-analysis of the deposited data

Results flagged for a closer look

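Of 21 differences of a class contrast between neighbouring ages, tested with limma in 1 fit over all ages, 4 passed. The Bdnf difference of hair against lateral cells was larger at P1 than at E16 by 1.68 ± 0.33 (adjusted p = 0.00029, 9.45% of genes called), and passed with pseudocounts of 1 and 50 CPM as well (2.18 and 1.06). For Ntf3 in hair against lateral cells P7 minus P1 was 1.68 ± 0.52 (adjusted p = 0.025, 12.1% of genes called), but P7 hair cells, at 1.84 and 7.67 CPM, were under the pseudocount of 10 CPM. With 1 CPM the term was 0.86 (adjusted p = 0.67) and with 50 CPM 1.77 (adjusted p = 7e-06), and hair cells held 6.91% of the lateral level at P1 and 10.6% at P7, so nothing is read from it. For Ngfr the same term was 1.72 ± 0.56 (adjusted p = 0.033), but Ngfr at P7 was under the level needed for a test within that age (23.6 and 18.5 CPM in lateral cells, beside a pseudocount of 10 CPM) and entered through the other ages, and with 1 and 50 CPM the term was 2.82 and 0.90 (adjusted p = 0.29 and 0.0024), so nothing is read from it either. The Ntf3 difference of hair cells against Kölliker's organ was lower at P1 than at E16, by -1.49 ± 0.46 (adjusted p = 0.030, 8.53% of genes called), and did not pass with 1 CPM (-1.82, adjusted p = 0.17) but did with 50 CPM (-0.85, adjusted p = 0.023). With 50 CPM 9 terms passed. These pseudocounts were added after the data had been seen.

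In all cells at P1, replicate 1 had 25.8 CPM of Ntrk2 and the nearest library 11.6 CPM, a gap that stands apart by Dixon's test. It was 1 of 21 groups of 4 tested, and chance sets apart about 1 in 20.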

How the results depend on the processing

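Of 949 values of 101 results under other settings, 842 stayed the same, and 15, none of them called, changed sign. Staying the same means keeping direction and side of the threshold. For values without a p-value it means a shift under the SD of the difference over libraries, or a share inside its exact interval. Another 27 values without a p-value moved beyond this. Sign changes in lateral against medial cells were Ntf3 at E14 0.031 (mean ln) and at E16 -0.45 (Leiden clusters), and Bdnf at E16 0.21 (Leiden), 0.092 (pooled UMIs) and 0.019 (mean ln). The Bdnf differences between P1 and P7 of hair cells against lateral cells and Kölliker's organ were 1.72 and 0.27 with 1 CPM, and that of lateral cells against Kölliker's organ from E14 to E16 was -0.016 with 50 CPM. Leaving out 1 library gave -0.27 to 0.17 for Bdnf in E16 lateral against medial cells, -0.031 to 0.11 in P1 and -0.17 to 0.46 in E16 inner against outer hair cells, -0.33 to 0.08 for Bdnf in lateral cells E16 against E14, and -0.10 to 0.35 for Ngfr in lateral cells P1 against E16.

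Ngfr in lateral against medial cells was no longer called at E14 with a pseudocount of 1 CPM (2.0), no filter on low values (1.72) or Leiden clusters (0.57), and was called at E16 with a pseudocount of 50 CPM (0.72), a looser gate (1.41), pooled UMIs (1.72) or mean ln (0.23), with 0.83 to 1.62 when 1 library was left out. The call was lost for Ntf3 in P7 hair against lateral cells with 1 CPM (-2.99), and gained in P7 lateral cells against Kölliker's organ with mean ln (0.18). Leaving out 1 library gave 0.49 to 0.89 for Bdnf in hair cells P1 against E16 (called without P1 replicate 1, 0.89, adjusted p = 0.018), -1.32 to -0.86 at P7 against P1, -1.65 to -1.25 for Ngfr in lateral cells P7 against P1, and -1.4 to -1.26 for Ntrk2 in Kölliker's organ E16 against E14, a call also lost with cells drawn down to 1500 UMIs (-1.16).

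Ngfr in lateral cells P7 against P1 was also lost with a stricter gate (-1.19). With the replicate block, 3 of the 10 calls among 21 results by age were lost: Ngfr in lateral cells (-0.88, adjusted p = 0.49) and Bdnf in all cells (-1.51, adjusted p = 0.073) at P7 against P1, and Ntrk2 in Kölliker's organ P1 against E16 (0.67, adjusted p = 0.082). In E14 hair against lateral cells Bdnf was 2.35 with 50 CPM, 2.34 with Leiden clusters and 1.5 with mean ln, and Ntf3 was -0.70 with mean ln and -0.68 with the hair gate first. Without thinning, 74.2%, 51.0%, 91.3% and 67.2% of hair cells had a Bdnf UMI and 78.4%, 47.0%, 78.4% and 12.6% of lateral cells an Ntf3 UMI at E14, E16, P1 and P7. Among single values, Ntf3 in hair cells P1 against E16 was lost without each of 6 of 7 libraries and under 3 other settings, and at P7 against P1 without P7 replicate 4 (-1.04, adjusted p = 0.12). Bdnf in P1 lateral cells against Kölliker's organ was lost without P1 replicate 3 (0.73, adjusted p = 0.11) and with 50 CPM (0.25) or mean ln (0.07). With mean ln, calls were also lost for Bdnf in E16 lateral (0.16) and P1 phalangeal cells (0.11) and Ntf3 in P1 hair cells (-0.26), each against Kölliker's organ.

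In comparisons between ages, the number of all genes called was 0.095 to 0.29 of that with all libraries without an E14 library and 0.40 to 0.56 without a P7 library. Within E14 or P7, 1 library left gives values with no test. Without E16 replicates 1, 2 and 3 the number moved by over 1.5 times in 7, 10 and 6 of 11 comparisons, from 0.21 (E16 lateral against medial, without E16 replicate 3) to 1.79 (lateral E16 against E14, without E16 replicate 3). Without P1 replicates 1 to 4 it did so in 3, 2, 4 and 0 of 13 (0.51 to 1.53). The cause was not tested. Depth limits Ntrk3, Gdnf and the P7 values of Ngfr, which rest on few UMIs.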
